A study of Homo sapiens with 6 samples.

Results

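The genes described here are the 7 cyclin-dependent kinase (CDK) inhibitor genes of the CIP/KIP and INK4 families and the 3 genes of the RB family, 10 of the 23368 gene symbols in the count table. They were chosen by symbol: CDKN1A, CDKN1B and CDKN1C for CIP/KIP, CDKN2A, CDKN2B, CDKN2C and CDKN2D for INK4, and RB1, RBL1 and RBL2 for the RB family. All 10 symbols were in the table, 8 had enough counts to be tested, and 2, CDKN2A and CDKN2B, had 0 counts in each of the 6 libraries. In the whole table, 5745 of the 23368 symbols had 0 counts in all 6 libraries, so such zeros were common. RNA-seq was done on MDA-MB231 cells, a human triple-negative breast cancer line known to carry a homozygous deletion at CDKN2A. The groups were siL1 and siL2, different siRNAs against LSD1 (gene symbol KDM1A, a histone lysine demethylase), and siControl, cells given a control siRNA, with 2 libraries each. All 3 groups were grown in serum-containing medium and transfected with the same lipid reagent; dose, sequence and time after transfection of the siRNAs are not given in the sources used here. The labels name no separate cultures, so p-values measure the spread between these libraries, which may be technical.

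CDK inhibitors slow the cell cycle by binding the kinases that drive it. The CIP/KIP proteins p21 (CDKN1A), p27 (CDKN1B) and p57 (CDKN1C) bind cyclin-CDK complexes, above all those of CDK2, while the INK4 proteins p16 (CDKN2A), p15 (CDKN2B), p18 (CDKN2C) and p19 (CDKN2D) bind CDK4 and CDK6 and keep the D cyclins off. The RB family, pRB (RB1), p107 (RBL1) and p130 (RBL2), holds E2F transcription factors in check until CDKs phosphorylate it, so that inhibitors and RB proteins act in 1 chain from kinase to E2F target genes.

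Library totals ran between 22047738 and 26765079 counts, between 15624 and 16065 genes had a count, and levels are given in CPM, the count scaled by the total of its library. KDM1A, the siRNA target, was at 27.7 and 28.1 CPM with siL1 and at 17.4 and 18.1 CPM with siL2, against 158 and 165 CPM with siControl. This set every LSD1 siRNA library apart from siControl. Both siRNAs target KDM1A, so its level cannot check which of them a library was given. The 6 markers fixed for the line, VIM, CD44, KRT18, KRT8, EGFR and AXL, were detected in every library. Their summed level was 6405 and 6410 CPM with siL1, 6669 and 6723 CPM with siL2, and 6495 and 6355 CPM with siControl. Of 6 luminal or receptor genes, ESR1, PGR and CDH1 were at or near 0, ERBB2 lay between 46.6 and 59.8 CPM, and GATA3 and FOXA1 were low but differed between groups. GATA3 was at 4.93 and 5.40 CPM with siL1 and at 3.70 and 3.69 CPM with siL2, against 2.81 and 2.54 CPM with siControl. FOXA1 was at 3.83 and 2.64 CPM with siL1 and at 2.39 and 2.19 CPM with siL2, against 5.53 and 5.16 CPM with siControl. The 6 blood markers summed to under 1 CPM in every library. Endothelial and fibroblast markers, 7 genes of which COL1A2 and DCN were at 0 throughout, summed to 14.5 and 13.6 CPM with siL1 and to 10.5 and 9.01 CPM with siL2, against 7.35 and 6.52 CPM with siControl, most of it COL1A1. This sum and GATA3 moved in the same order as CDKN1A below, and the part of these markers in any result was not tested. In such bulk RNA, fewer cells with a transcript and less of it per cell cannot be told apart.

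Sequence is shown first for the genes with the widest movement and for the one with matches to an E2F element, since these are where the groups differed most and where the RB and E2F chain would be read. The RefSeq table for GRCh38.p14 gave promoter windows, 250 bases before to 50 after an annotated start, for 9 of the 10 genes (13 windows), and CDKN1C was not among them. Each run is written 5′ to 3′ on the strand of the gene, and capitals mark matches on either strand to a CCAAT box, a GC box or an E2F element. The GC box was searched as GGGCGG. The E2F element was searched as TTTCCCGC, TTTCGCGC, TTTGCCGC or TTTGGCGC.
CDKN1A, chr6:36678464-36678763, plus strand: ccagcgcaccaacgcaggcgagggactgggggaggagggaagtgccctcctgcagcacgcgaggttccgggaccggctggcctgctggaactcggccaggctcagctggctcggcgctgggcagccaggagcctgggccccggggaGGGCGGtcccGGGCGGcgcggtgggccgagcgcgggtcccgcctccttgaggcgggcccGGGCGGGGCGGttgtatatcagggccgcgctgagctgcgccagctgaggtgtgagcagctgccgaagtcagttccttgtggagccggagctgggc
CDKN1B, chr12:12717118-12717417, plus strand: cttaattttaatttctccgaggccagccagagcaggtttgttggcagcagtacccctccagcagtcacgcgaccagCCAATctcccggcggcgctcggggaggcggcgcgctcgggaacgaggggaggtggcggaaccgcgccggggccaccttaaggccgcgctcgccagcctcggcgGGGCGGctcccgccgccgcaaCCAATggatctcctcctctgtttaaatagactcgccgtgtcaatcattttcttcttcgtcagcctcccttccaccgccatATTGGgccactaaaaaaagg
CDKN2D, chr19:10568930-10569229, minus strand: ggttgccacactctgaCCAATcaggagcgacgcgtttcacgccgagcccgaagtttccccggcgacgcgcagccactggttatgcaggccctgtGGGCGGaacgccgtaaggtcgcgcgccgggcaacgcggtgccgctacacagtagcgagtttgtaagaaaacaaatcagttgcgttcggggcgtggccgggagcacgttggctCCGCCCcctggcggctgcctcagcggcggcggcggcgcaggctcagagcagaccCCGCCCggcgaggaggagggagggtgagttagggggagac
RBL1, chr20:37095948-37096247, minus strand: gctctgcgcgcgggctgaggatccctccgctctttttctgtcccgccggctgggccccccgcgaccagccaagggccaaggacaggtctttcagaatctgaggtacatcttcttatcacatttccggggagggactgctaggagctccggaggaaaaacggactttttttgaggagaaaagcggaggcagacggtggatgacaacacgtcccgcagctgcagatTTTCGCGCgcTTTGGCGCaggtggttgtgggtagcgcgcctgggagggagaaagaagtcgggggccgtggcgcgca
The CDKN1A window held 4 GC boxes, of which the last 2, at positions -45 and -40 with the start as 0, share a base. CDKN1B had 1 GC box and 3 CCAAT boxes, and CDKN2D had 3 GC boxes and 1 CCAAT box. RBL1 had no GC box but 2 E2F elements, at -26 and -16, the only E2F matches in the 13 windows. RB1 was searched only at chr13:48476200-48476499, with 38.3% GC beside a median of 58.7% over all windows. Whether RB1 mainly starts there was not tested, so the lack of a match covers that window alone. Of all 35116 promoter windows of the same length, 3.31% held an E2F element, 45% a GC box and 34.6% a CCAAT box. A match is only a run of letters, and a gene may start elsewhere in these cells.

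With siL1, 3 of the 8 tested genes rose (CDKN1A, CDKN1C and RB1) and 3 fell (CDKN1B, RBL1 and RBL2) against siControl. Of all 13322 genes tested, 50.4% passed the threshold in that comparison, 24.7% higher and 25.7% lower, so a change past the threshold was common in the table at large. With siL2, 2 rose (CDKN1A and CDKN2D) and 1 fell (RB1), where 45.8% of all genes passed, 22.6% higher and 23.3% lower. The median log2 fold change of the 8 genes was -0.02 with siL1 and -0.06 with siL2, beside -0.01 and -0.0036 over all genes tested, and the 8 genes did not share a direction. Both comparisons share the siControl libraries. The size of change was 0.35 with siL1 and 0.12 with siL2 as the median absolute log2 fold change, beside 0.24 and 0.21 over all genes. Adjusted p-values below are from edgeR's quasi-likelihood test with Benjamini-Hochberg adjustment over all genes tested, and a gene passes under 0.05.

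**Figure D1:**
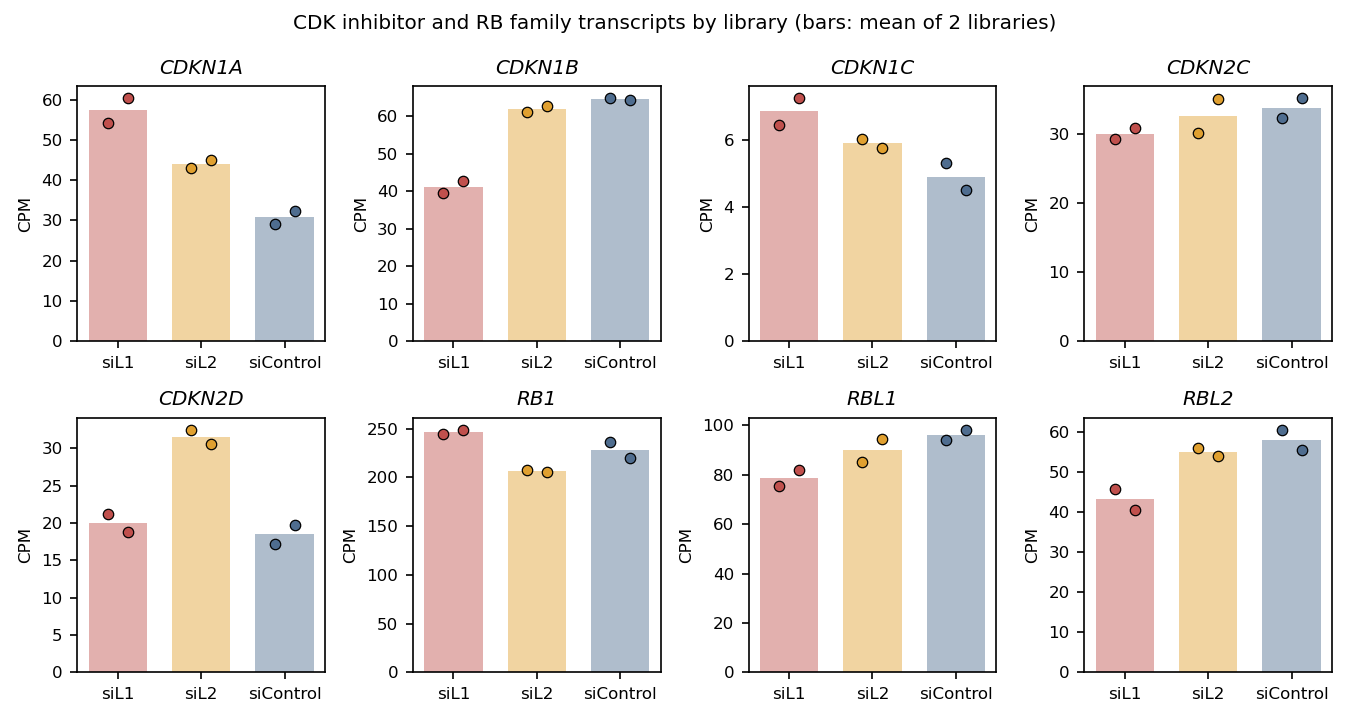
CPM of the 8 tested genes in each library (points) with the mean of the 2 libraries (bars), for siL1, siL2 and siControl from left to right, each panel with its own axis from 0. CDKN1A is higher with both LSD1 siRNAs, CDKN1B and RBL2 are lower with siL1, and CDKN2D is higher with siL2.

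CDKN1A, which encodes p21, was the CIP/KIP gene that rose with both siRNAs. It was at 54.3 and 60.4 CPM with siL1 and at 43.0 and 45.1 CPM with siL2, against 29.1 and 32.4 CPM with siControl. The 3 groups did not overlap, with siL1 on top and siL2 between. The level was 1.87 times that of siControl with siL1, a log2 fold change of 0.90 (SE 0.0744, adjusted p = 7.52e-07), and 1.425 times with siL2, a log2 fold change of 0.51 (SE 0.0757, adjusted p = 0.000126). A larger absolute change was seen in 6.22% of all tested genes with siL1 and in 17% with siL2. The authors' deposited table gave linear fold changes of 1.88 and 1.43 for CDKN1A with siL1 and siL2.

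CDKN1B, which encodes p27, fell with siL1, and with siL2 it did not pass the threshold. It was at 39.5 and 42.7 CPM with siL1 and at 61.1 and 62.75 CPM with siL2, against 64.9 and 64.4 CPM with siControl. The siL1 libraries lay far below the other 4, while the siL2 libraries lay just under siControl. The log2 fold change was -0.65 with siL1 (SE 0.0585, adjusted p = 1.68e-06) and -0.07 with siL2 (SE 0.056, adjusted p = 0.356, 95% interval -0.19 to 0.05). A fall the size of that with siL1 lies outside the siL2 interval.

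CDKN1C, which encodes p57 and is imprinted, was the lowest of the tested genes. It was at 6.465 and 7.26 CPM with siL1 and at 6.05 and 5.76 CPM with siL2, against 5.31 and 4.53 CPM with siControl, from 107 to 179 counts per library. The groups did not overlap, though the steps between them were close to the gaps within them. The log2 fold change was 0.49 with siL1 (SE 0.141, adjusted p = 0.0111) and 0.26 with siL2 (SE 0.142, adjusted p = 0.151, 95% interval -0.04 to 0.57). The siL1 call was lost without siControl replicate 2 (log2 fold change 0.37, adjusted p = 0.102), without siL1 replicate 2 (0.39, adjusted p = 0.0908) and with DESeq2 (adjusted p = 0.0679).

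The neighbours of CDKN1C, in and beside its imprinted domain on chromosome 11, gave a mixed picture. Of the 10 listed genes there, 8 were tested, and 4 rose and 1 fell with siL1 while 1 rose and 2 fell with siL2. The 2 siL2 falls were CARS (log2 fold change -0.18) and CD81 (-0.13), and each call was lost in 3 of 15 alternatives. So was the siL1 rise of CARS (0.17). Over all genes tested, 50.4% passed with siL1 and 45.8% with siL2. SLC22A18, a transporter gene next but 1 to CDKN1C in the table's gene order, was at 6.59 and 6.65 CPM with siL1 and at 5.455 and 7.10 CPM with siL2, against 2.68 and 2.03 CPM with siControl. Its log2 fold change was 1.5 with siL1 (SE 0.188, adjusted p = 2.75e-05) and 1.41 with siL2 (SE 0.188, adjusted p = 5.29e-05). PHLDA2, a growth-restraining imprinted gene, rose with siL1 (log2 fold change 0.56, adjusted p = 3.55e-06) and was at 0.05 with siL2 (adjusted p = 0.459). NAP1L4, a histone chaperone gene, fell with siL1 (-0.30, adjusted p = 0.00131) and was at 0.07 with siL2 (adjusted p = 0.368). KCNQ1OT1, the noncoding RNA that silences the domain on the paternal chromosome, was at -0.05 and 0.08 with siL1 and siL2 (adjusted p = 0.886 and 0.83). H19, a noncoding RNA of the next domain, was at 1.87 and 1.99 CPM with siL1 and at 0.598 and 0.325 CPM with siL2, against 0.499 and 0.0847 CPM with siControl. H19 rose with siL1 (log2 fold change 2.74, adjusted p = 0.000232, and 1.94 to 4.43 over the alternatives, the highest without siControl replicate 1). With siL2 it was at 0.70 (adjusted p = 0.368), 2.39 without siControl replicate 1 (adjusted p = 0.0408) and -0.10 without siControl replicate 2. One siControl library lay below the floor of 3 counts for H19, so its fold has little precision.

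Among the INK4 genes, CDKN2A and CDKN2B had no read at all, and they belonged to the 5745 of 23368 symbols at 0 throughout. Over the 145235458 counts of the 6 libraries together, 0 counts allow a level of up to 0.0207 CPM, counting error only. Neither siRNA gave a read from them. The zeros were not confined to these genes: CDKN2A lies in a run of 15 adjacent genes of the table at 0, of which 6 are interferon genes and 9 are others, among them MTAP, a methionine salvage gene of wide expression, CDKN2B-AS1, MIR31HG, DMRTA1 and ELAVL2. The nearest tested genes on either side were KIAA1797, with 320 counts over the 6 libraries, and TUSC1, with 1801. Between them stood 29 genes, of which 28 were at 0, 17 of those 29 being interferon genes that few cells express, and KLHL9 had 4 counts. The line is known to carry a homozygous deletion at CDKN2A, and how far it reaches was not tested here. For the other genes of the run, counts alone cannot tell a missing gene from a silent one.

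**Figure D2:**
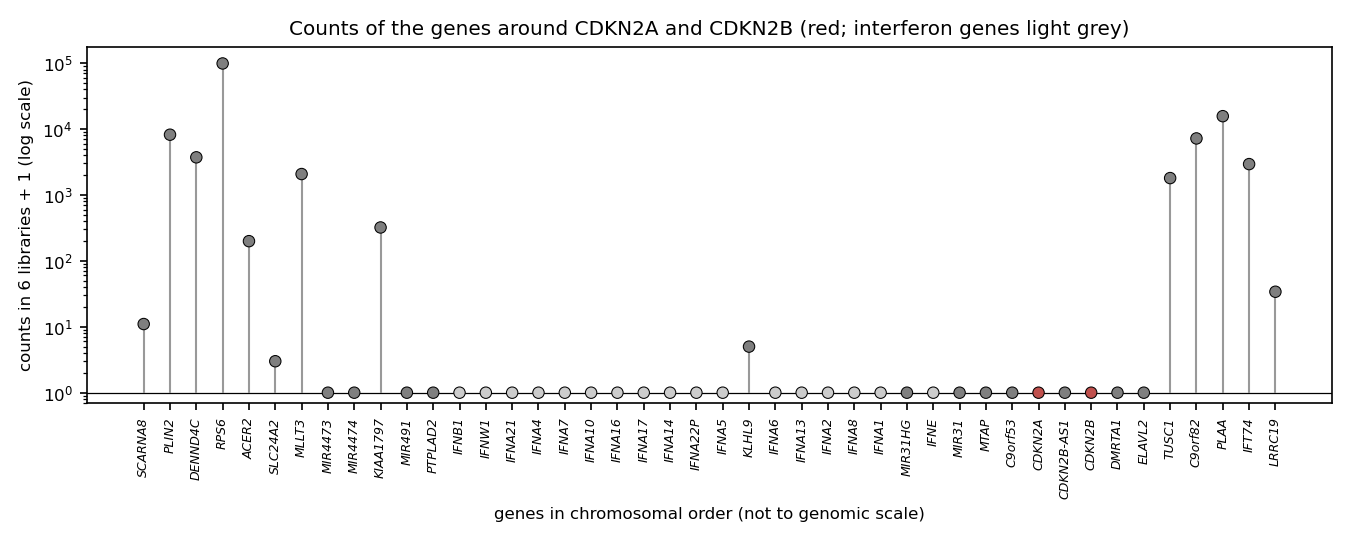
Counts summed over the 6 libraries, plus 1, on a log axis, for the genes around CDKN2A and CDKN2B (red) in chromosomal order, not to genomic scale, with interferon genes in light grey. The points between KIAA1797 and TUSC1 sit on the line of 0 counts except KLHL9.

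CDKN2D, which encodes p19, was the INK4 gene that rose, and it rose with siL2. It was at 21.3 and 18.8 CPM with siL1 and at 32.5 and 30.6 CPM with siL2, against 17.2 and 19.8 CPM with siControl. The siL2 libraries lay above all others, and siL1 overlapped siControl. The siL2 level was 1.70 times that of siControl, a log2 fold change of 0.77 (SE 0.0879, adjusted p = 1.5e-05), and 7.39% of all tested genes had a larger absolute change. With siL1 the log2 fold change was 0.12 (SE 0.0929, adjusted p = 0.317, 95% interval -0.08 to 0.32).

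CDKN2C, which encodes p18, passed in neither comparison. It was at 29.35 and 30.9 CPM with siL1 and at 30.15 and 35.2 CPM with siL2, against 32.4 and 35.3 CPM with siControl. The siL1 libraries lay just below siControl and the siL2 libraries overlapped it. The log2 fold change was -0.16 with siL1 (adjusted p = 0.123, 95% interval -0.34 to 0.02) and -0.06 with siL2 (adjusted p = 0.608, 95% interval -0.23 to 0.12).

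In the RB family, RB1 was the most abundant gene, and its changes were small and opposite in sign. It was at 244.2 and 248.9 CPM with siL1 and at 208 and 205.1 CPM with siL2, against 236.5 and 220.1 CPM with siControl. The siL1 libraries lay above both siControl libraries and the siL2 libraries below both. The log2 fold change was 0.12 with siL1 (SE 0.0423, adjusted p = 0.0362) and -0.15 with siL2 (SE 0.0425, adjusted p = 0.0121). The siL1 call was lost without siControl replicate 2 (0.06, adjusted p = 0.334), without siL1 replicate 1 (0.13, adjusted p = 0.0621), without siL1 replicate 2 (0.09, adjusted p = 0.179) and with DESeq2 (adjusted p = 0.068), and the siL2 call without siControl replicate 1 (-0.10, adjusted p = 0.132) and without siL2 replicate 2 (-0.14, adjusted p = 0.0573). The authors' deposited table gave RB1 adjusted p-values of 0.104 with siL1 and 0.0523 with siL2.

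RBL1, which encodes p107, fell with siL1. It was at 75.6 and 82.0 CPM with siL1 and at 85.3 and 94.6 CPM with siL2, against 94.0 and 98.3 CPM with siControl. The siL1 libraries lay below siControl, and 1 siL2 library lay within the siControl range. The log2 fold change was -0.28 with siL1 (SE 0.0614, adjusted p = 0.00196) and -0.10 with siL2 (SE 0.0605, adjusted p = 0.196, 95% interval -0.23 to 0.03). Without siL2 replicate 2 the siL2 difference was -0.18 (adjusted p = 0.0483).

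RBL2, which encodes p130, the RB protein of resting cells, also fell with siL1. It was at 45.8 and 40.65 CPM with siL1 and at 56.1 and 54.1 CPM with siL2, against 60.6 and 55.5 CPM with siControl. The siL1 libraries stood below all others, and siL2 overlapped siControl. The log2 fold change was -0.42 with siL1 (SE 0.0678, adjusted p = 0.000212) and -0.08 with siL2 (SE 0.066, adjusted p = 0.352, 95% interval -0.22 to 0.06). The exons of RBL2 share 610 bases with those of AKTIP and 381 with those of another gene, on the opposite strand in GENCODE. RBL1 (211 bases), CDKN1A (32 bases) and CDKN2A (341 bases) also share exon bases with a gene on the opposite strand. The strand setting of the counting is not given in the sources used here, so reads in these stretches cannot be assigned. AKTIP was at 6.72 and 5.96 CPM with siL1 and at 8.74 and 6.86 CPM with siL2, against 9.21 and 7.20 CPM with siControl (log2 fold change -0.36 with siL1, adjusted p = 0.072). Its part in the RBL2 result was not tested.

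**Figure D3:**
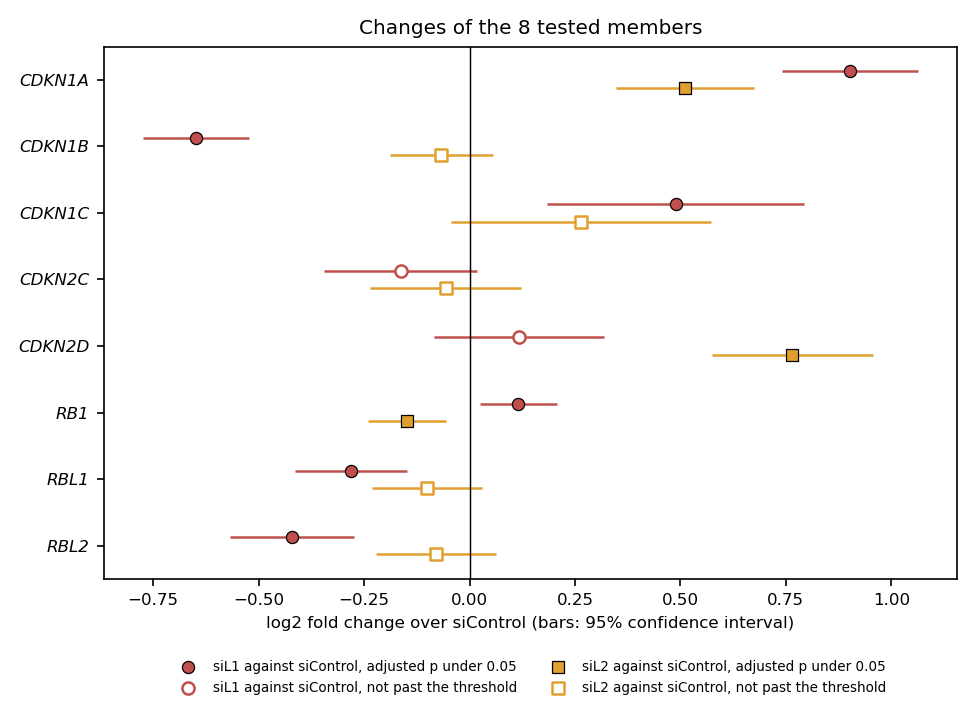
Log2 fold change over siControl of the 8 tested genes with siL1 (circles) and siL2 (squares), with bars for the 95% confidence interval and filled marks for an adjusted p under 0.05. CDKN1A is to the right of 0 for both siRNAs, RB1 falls on either side of 0, and for CDKN1B and CDKN2D 1 siRNA is far from 0 and the other is not.

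The siRNAs were then compared with each other, siL2 against siL1, where no siControl library enters the difference. Of the 8 genes, 4 were higher with siL2 and 2 lower, beside 46.8% of all genes passing, 23.2% higher and 23.7% lower. CDKN2D was higher with siL2 by a log2 fold change of 0.65 (SE 0.0864, adjusted p = 5.51e-05) and CDKN1B by 0.58 (SE 0.0581, adjusted p = 5.07e-06). RBL2 was higher with siL2 by 0.34 (adjusted p = 0.0011) and RBL1 by 0.18 (adjusted p = 0.0273). CDKN1A was lower with siL2, at -0.39 (SE 0.0708, adjusted p = 0.000594), and so was RB1, at -0.26 (SE 0.0423, adjusted p = 0.00024). CDKN1C (-0.23, adjusted p = 0.188) and CDKN2C (0.11, adjusted p = 0.314) did not pass. The RBL1 call was lost without siL1 replicate 1 (0.12, adjusted p = 0.209) and without siL2 replicate 2 (0.10, adjusted p = 0.258), and with DESeq2 (0.18, adjusted p = 0.0505). KDM1A itself was lower with siL2 than with siL1, by a log2 fold change of -0.66 (adjusted p = 4.36e-06).

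Levels between genes were set on a per-length scale, RPKM, which divides CPM by the exon length in kilobases, with exon lengths from GENCODE on GRCh38 although the counts were made on hg19. In siControl, RB1 was highest at 45.5 ± 2.32 RPKM (SD, n = 2), above CDKN1B at 24.3 ± 0.127 and RBL1 at 16.5 ± 0.516 RPKM. CDKN1A (12.3 ± 0.926 RPKM), CDKN2D (12.3 ± 1.21 RPKM) and RBL2 (11.8 ± 0.735 RPKM) did not differ beyond their spread, CDKN2C followed at 10.2 ± 0.616 RPKM, and CDKN1C was lowest at 2.53 ± 0.283 RPKM. RB1 stood above 86.8% of the 11861 tested genes with a length and CDKN1C above 27.4%.

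The leading CIP/KIP transcript was not the same in all groups. The RPKM of CDKN1A over that of CDKN1B was 1.46 and 1.5 with siL1 and 0.745 and 0.761 with siL2, against 0.475 and 0.533 with siControl. CDKN1A was thus the more abundant of the pair in both siL1 libraries and the less abundant in the other 4. The summed CIP/KIP level was 39.8 and 43.9 RPKM with siL1 and was 43.2 and 44.6 RPKM with siL2, against 38.8 and 39.5 RPKM with siControl, a narrower range than that of CDKN1A or CDKN1B. CDKN1A made up 54.3% and 54.9% of that sum with siL1 and 39.6% and 40.3% with siL2, against 29.9% and 32.7% with siControl.

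In the INK4 family, reduced to CDKN2C and CDKN2D here, the RPKM sum was 23.0 and 21.8 with siL1 and 30.7 and 30.9 with siL2, against 21.2 and 23.8 with siControl. The siL2 libraries stood apart in this sum. CDKN2D gave 70.4% and 65.7% of it with siL2 and 61.5% and 57.3% with siL1, against 54% and 55.3% with siControl. The RB family sum was 71.1 and 72.1 RPKM with siL1 and 67.6 and 68.2 RPKM with siL2, against 75.7 and 72.1 RPKM with siControl. RB1 made up 68.6% and 68.9% of it with siL1 and 61.4% and 60% with siL2, against 62.3% and 60.9% with siControl.

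**Figure D4:**
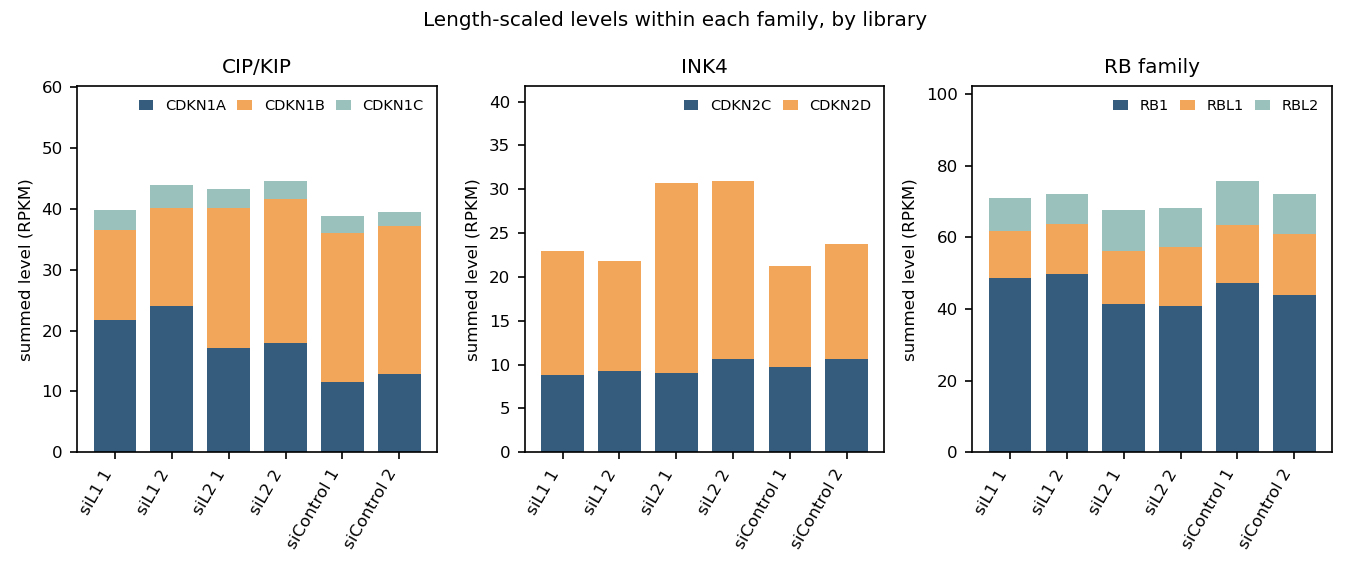
Stacked RPKM of the genes of each family in each library, with the LSD1 siRNA libraries left of siControl and each axis from 0. CDKN1A takes the larger part of the CIP/KIP bar with siL1, and the INK4 bars are tallest with siL2.

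Genes for cyclins and CDKs, not all of them known targets of these inhibitors, moved in both directions. Of 16 listed cyclin and CDK genes, all tested, 5 rose and 8 fell with siL1, and 3 rose and 5 fell with siL2. Over all genes tested, 24.7% rose and 25.7% fell with siL1, and 22.6% rose and 23.3% fell with siL2. Counts for this list and for each list below are to be read beside these shares, and no list was tested as a set. CDK6, the G1 kinase that INK4 proteins bind, was at 209.4 and 225.3 CPM with siL1 and at 401.4 and 425 CPM with siL2, against 132 and 126.4 CPM with siControl. Its log2 fold change was 0.76 with siL1 (SE 0.0494, adjusted p = 1.02e-07) and 1.67 with siL2 (SE 0.049, adjusted p = 1.24e-10), and the groups stood well apart. CCND1, which encodes cyclin D1, rose with siL1 (log2 fold change 0.93, adjusted p = 4.75e-09) and was at 0.01 with siL2 (adjusted p = 0.897). The cyclin E genes split: CCNE1 fell with both siRNAs (-1.13 with siL1, adjusted p = 1.68e-06, and -0.57 with siL2, adjusted p = 0.000341), and CCNE2 rose with both (0.41, adjusted p = 0.000524, and 0.76, adjusted p = 2.76e-06).

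Of 18 listed genes for E2F factors, their DP partners and the DREAM complex that p107 and p130 join, 3 rose and 7 fell with siL1, and 6 rose and 5 fell with siL2. E2F1, an activating E2F, was at 62.3 and 65.8 CPM with siL1 and at 110 and 115.9 CPM with siL2, against 82.9 and 92.7 CPM with siControl, so siL1 lay below and siL2 above. Its log2 fold change was -0.45 with siL1 (adjusted p = 5.38e-05) and 0.36 with siL2 (adjusted p = 0.000273). TFDP1, the main DP partner, also went both ways, at -0.15 with siL1 (adjusted p = 0.0034) and 0.41 with siL2 (adjusted p = 1.28e-06). E2F7, a repressor E2F, rose with both (0.65, adjusted p = 1.92e-06, and 0.63, adjusted p = 2.96e-06).

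Of 15 listed E2F target genes, most of which serve DNA replication or nucleotide supply and which include the proliferation marker MKI67, 1 rose and 12 fell with siL1, and 5 rose and 3 fell with siL2. Their median log2 fold change was -0.33 with siL1 and 0.09 with siL2, beside -0.01 and -0.0036 over all genes tested. PCNA, the polymerase clamp, was at 138.8 and 146 CPM with siL1 and at 214.5 and 217.3 CPM with siL2, against 174 and 181.7 CPM with siControl. Its log2 fold change was -0.32 with siL1 (adjusted p = 6.15e-05) and 0.28 with siL2 (adjusted p = 0.000178), so it fell with one siRNA and rose with the other. RRM2, a ribonucleotide reductase subunit, fell with siL1 (-0.62, adjusted p = 3.87e-06) and was at -0.01 with siL2 (adjusted p = 0.928). TK1, thymidine kinase, was the listed target that rose with siL1 (0.25, adjusted p = 8.07e-05), and it rose with siL2 too (0.26, adjusted p = 6.6e-05). In siL2 against siL1, 12 of the 15 were higher, 0 lower and 3 did not pass, beside 23.2% of all genes higher and 23.7% lower.

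**Figure D5:**
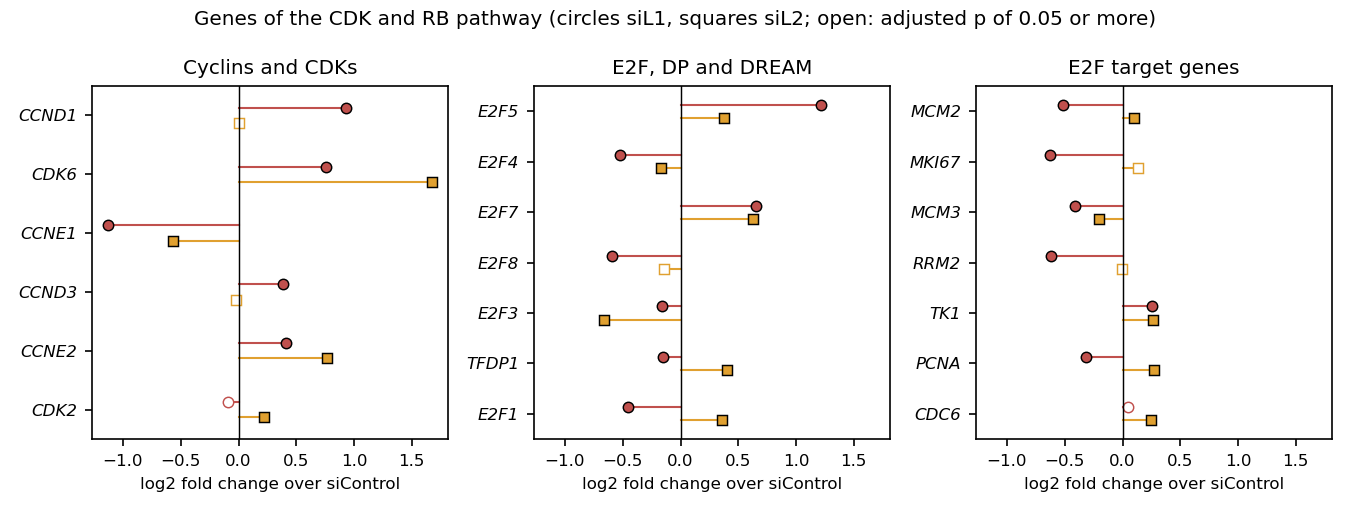
Log2 fold change over siControl with siL1 (circles) and siL2 (squares), open marks for an adjusted p of 0.05 or more. Shown is only a part of the lists of cyclins and CDKs, of E2F and DP genes and of E2F targets. These genes were picked for the smallest p in their list with siL1 or with siL2, so their marks do not stand for whole lists. Among the E2F targets shown, marks for siL1 lie mostly left of 0, and those for siL2 lie on both sides. Of all 15 listed targets, 1 rose and 12 fell with siL1, and 5 rose and 3 fell with siL2.

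Genes whose products bind pRB or remove its phosphates, 16 in the list, gave 4 higher and 7 lower with siL1 and 3 higher and 6 lower with siL2. RBBP8, a pRB-binding DNA repair factor, fell with both siRNAs (-0.58, adjusted p = 1.57e-07, and -0.18, adjusted p = 0.00185). SMARCA4, the remodelling ATPase that pRB can recruit, fell as well (-0.55, adjusted p = 4.73e-06, and -0.25, adjusted p = 0.00222). The deacetylase partners split: HDAC1 rose with both (0.36, adjusted p = 2.45e-05, and 0.22, adjusted p = 0.00124) and HDAC2 fell with both (-0.19, adjusted p = 0.000441, and -0.22, adjusted p = 0.000182). So did catalytic subunits of the phosphatase that acts on pRB. PPP1CB rose with both (0.30, adjusted p = 3.66e-05, and 0.37, adjusted p = 8.59e-06), and PPP1CC fell with siL2 (-0.44, adjusted p = 1.55e-06). With siL1 PPP1CC was at 0.13 (adjusted p = 0.0155), a call lost without siControl replicate 1 (0.078, adjusted p = 0.163), without siL1 replicate 1 (0.13, adjusted p = 0.0574) and without siL1 replicate 2 (0.12, adjusted p = 0.0635).

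The p21 and p27 proteins are set by turnover as well as by transcription, and protein was not measured. Of 14 listed genes for their turnover, 4 rose and 2 fell with siL1, and 4 rose and 1 fell with siL2. UHMK1, a kinase that phosphorylates p27 and sends it out of the nucleus, was at 434.6 and 442.3 CPM with siL1 and at 439.4 and 455.3 CPM with siL2, against 120.8 and 115.9 CPM with siControl. Its log2 fold change was 1.89 with siL1 (SE 0.0405, adjusted p = 1.09e-11) and 1.91 with siL2 (SE 0.0405, adjusted p = 9.43e-12). AKT1, a kinase of p21 and p27, rose with both (0.67, adjusted p = 2.36e-08, and 0.45, adjusted p = 8.35e-07). SKP2, which marks p27 for destruction, was at 139.4 and 125 CPM with siL1 and at 215.3 and 208 CPM with siL2, against 241.1 and 220.3 CPM with siControl. SKP2 fell with siL1 (-0.80, adjusted p = 1.52e-07), where CDKN1B mRNA was also lower. With siL2 it was at -0.13 (adjusted p = 0.0677), and it passed in 6 of 15 alternatives, among them without siControl replicate 2 (-0.19, adjusted p = 0.0189) and without either siL1 library (-0.13 each, adjusted p = 0.0448 and 0.0456).

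Transcription factors that act on CIP/KIP genes were mixed, with 4 of 18 higher and 5 lower with siL1, and 7 higher and 2 lower with siL2. MYC, which represses CDKN1A with ZBTB17, was at 236.9 and 252.1 CPM with siL1 and at 195 and 215.5 CPM with siL2, against 312.8 and 351.4 CPM with siControl, and fell with both (-0.44, adjusted p = 6.1e-05, and -0.70, adjusted p = 1.32e-06). SMAD2, a TGF-beta signal carrier, rose with both (0.42, adjusted p = 8.33e-05, and 0.43, adjusted p = 7.12e-05). FOXO4, a factor that can raise CDKN1B, was at -0.12 with siL1 (adjusted p = 0.475) and rose with siL2 (0.90, adjusted p = 3.64e-05).

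Regulators known to act on the INK4 locus, mostly Polycomb genes, numbered 16, of which 14 were tested. With siL1, 1 rose and 7 fell, and with siL2, 2 rose and 4 fell. CDKN2A and CDKN2B were at 0 counts in every group. With a homozygous deletion known at CDKN2A in this line, its zeros cannot be read as a response to these regulators. EZH2, the Polycomb methyltransferase, fell with both (-0.55, adjusted p = 1.14e-05, and -0.45, adjusted p = 5.83e-05), and so did KDM2B, a histone demethylase that binds CpG islands (-0.62, adjusted p = 7.53e-07, and -0.50, adjusted p = 4.75e-06). CBX7, a Polycomb reader, fell with siL1 (-0.59, adjusted p = 0.000449) and rose with siL2 (0.36, adjusted p = 0.00895).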

How the data were processed

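The study has 6 RNA-seq libraries of MDA-MB231 cells, 2 per group. The deposited table gives raw counts per gene symbol, not normalized. For each siRNA it adds a fold change over the control, a linear ratio computed by the authors, and an adjusted p-value of the authors. TopHat 1.3.3, HTSeq, DESeq and hg19 are named per the submitters' processing notes; the annotation and strandedness of the counting are not given in the sources used here. Columns were matched to samples by title.

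Counts were analysed in R 4.3.3 with edgeR 4.0.16. Genes kept by filterByExpr by group (13322 of 23368; 10046 left out) were scaled by TMM and fitted with glmQLFit over all 6 libraries with group as the only term, 3 residual degrees of freedom and a common biological coefficient of variation of 3.72%. Comparisons were made by glmQLFTest (two-sided; Benjamini-Hochberg over all genes tested; threshold 0.05), with code tested on simulated data. SDs are over 2 libraries, and SEs and 95% intervals are of the log2 fold change. Totals of 22047738 to 26765079 counts put the floor of 3 counts at 0.112 to 0.136 CPM in a library, counting error only. RPKM used union exon lengths of GENCODE release 29, found for 89% of tested genes. Promoter windows came from RefSeq (GRCh38.p14) and were searched in Python 3.11.15.

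The genes and all lists were chosen with earlier results of these data known, and no list was tested as a set. Some listed genes are not reported here. Genes with values outside the 10 are KDM1A, the cell markers, and all listed neighbours of CDKN2A and CDKN1C. From each other list they are genes among the 4 smallest p with siL1 or with siL2. The 3 genes with the nearest profile to each of the 8 were added. Those printed are taken from these, plus AKTIP for its overlap with RBL2. KIAA1797 and TUSC1 are given as the nearest tested genes on either side of CDKN2A. Alternatives tried were 2 other scalings, 2 other filters, DESeq2 1.42.0, limma-voom (limma 3.58.1), a replicate block, only the groups compared, a required fold change of 1.2, and leaving out each library in turn.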

Additional observations from a re-analysis of the deposited data

Results flagged for a closer look

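For 6 of the 8 tested genes the effects of the 2 siRNAs differed from each other by the test of siL2 against siL1 in edgeR's quasi-likelihood fit, with Benjamini-Hochberg adjustment over all genes tested. The siL2 effect minus the siL1 effect was 0.648 on the log2 scale for CDKN2D (adjusted p = 5.51e-05), 0.582 for CDKN1B (adjusted p = 5.07e-06), 0.342 for RBL2 (adjusted p = 0.0011) and 0.181 for RBL1 (adjusted p = 0.0273), a call lost without siL1 replicate 1 (0.12), without siL2 replicate 2 (0.10) and with DESeq2 (0.18). It was -0.392 for CDKN1A (adjusted p = 0.000594), where both siRNAs gave a rise, and -0.264 for RB1 (adjusted p = 0.00024), where the effects had opposite signs. Among all genes tested, 46.8% passed in that comparison.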

How the results depend on the processing

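CDKN1A with both siRNAs, CDKN1B and RBL2 with siL1 and CDKN2D with siL2 kept their direction and their side of the threshold under all 15 alternatives. A required fold change of 1.2 left 2700 genes and 3 of the 10 with siL1, and 2253 and 2 with siL2. In siL2 against siL1 it left 2307 genes and 2 of the 10. It ended the calls of CDKN1C, RB1 and RBL1 with siL1 and of RB1 with siL2. In siL2 against siL1 those of CDKN1A, RB1, RBL1 and RBL2 ended, as the test asks for more than any change. Of the 10, CDKN2A and CDKN2B had 0 counts and could not pass in any setting. DESeq2 called 5215, 4708 and 4686 genes in the 3 comparisons and 4, 3 and 5 of the 10. Leaving out each library in turn gave 5452 to 6731 genes and 4 to 6 of the 10 with siL1, 4947 to 6060 genes and 2 to 3 of the 10 with siL2, and 4944 to 6231 genes and 5 to 6 of the 10 in siL2 against siL1, with 1 library left in an arm assumed to vary like the others.

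Replicates 1 and 2 carry the same numbers in each group, with no label that pairs them. Replicate differences correlated at 0.141 (siL1 and siControl), 0.198 (siL2 and siControl) and 0.133 (siL2 and siL1). With the replicate number as a block, 8036, 7610 and 7700 genes passed in the 3 comparisons and 7, 4 and 6 of the 10, adding CDKN2C with siL1 (-0.16, adjusted p = 0.0141) and RBL1 with siL2 (-0.10, adjusted p = 0.0259).

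Some small differences changed sign, none of them past the threshold on both sides of 0, and the cause was not tested. With siL2 under upper quartile scaling, RRM2 was at 0.012. Over the fits that leave out 1 library, the siL2 differences ran from -0.17 to 0.055 for CDKN2C, from -0.0098 to 0.024 for CCND1, from -0.11 to 0.084 for RRM2 and from -0.17 to 0.36 for KCNQ1OT1. That of H19 ran from -0.10 to 2.39, past the threshold at 2.39. With siL1, KCNQ1OT1 ran from -0.30 to 0.23, and in siL2 against siL1 CDKN2C ran from -0.0090 to 0.22. No alternative scaling or filter moved the median of all genes by more than 0.0237 on the log2 scale. Low counts limit the precision for CDKN1C and its neighbours SLC22A18, KCNQ1OT1 and H19.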

Other observations

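Other listed genes with links to CDKs or their inhibitors, not all of them known to slow CDKs, were also mixed. Of 11 listed, 3 rose and 3 fell with siL1, and 2 rose and 2 fell with siL2, beside 50.4% and 45.8% of all genes passing. WEE1, the kinase that places the inhibitory phosphate on CDK1, fell with siL1 (log2 fold change -0.48, adjusted p = 2e-05) and was at 0.02 with siL2 (adjusted p = 0.835). CDKN3, a phosphatase that acts on CDK2, fell with siL1 (-0.25, adjusted p = 0.00047) and was at 0.05 with siL2 (adjusted p = 0.382). CABLES1, a CDK-binding adaptor, rose with siL1 (0.53, adjusted p = 0.000129) and was at 0.03 with siL2 (adjusted p = 0.813). CDKN2AIPNL, named for its likeness to a protein that binds the CDKN2A product ARF, was at 15.3 and 15.8 CPM with siL2, against 33.1 and 29.8 CPM with siControl, a log2 fold change of -1.02 (adjusted p = 5.78e-07), and was at -0.14 with siL1 (adjusted p = 0.138).

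Profiles over the 6 libraries were compared as the Euclidean distance between log2 CPM values centred on each gene's mean, among the 10446 tested genes that averaged 5 CPM or more. The genes nearest to CDKN1A were KRT80 at a distance of 0.0685, ZNF528 at 0.0698 and STS at 0.116, where the median gene was at 1.01. Nearest to CDKN1B were EXO1 at 0.0614, RGS12 at 0.0968 and FEN1 at 0.106, where the median gene was at 0.766. Nearest to CDKN2D were BCL2L2 at 0.147, CCDC15 at 0.178 and ANK3 at 0.18, where the median gene was at 0.919. The first in order was GPR137C for CDKN1C, PTS for CDKN2C, RFK for RB1, GTPBP8 for RBL1 and SHROOM1 for RBL2. With 6 libraries in 3 groups, many genes lie close to any profile.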
